A study of Danio rerio with 12 samples.

Results

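The genes described here are 10 genes of lymphatic and blood vessel endothelium in whole zebrafish larvae exposed to tributyltin chloride (TBT), out of 26816 genes measured. They were chosen by gene name: lyve1a, lyve1b, stab1, stab2, mrc1a, vegfc, flt4, kdrl, prox1a and cdh5. The starting point of the choice was the rise of lyve1a at 100 nM, so its values are given as a description with no test, and the question was whether that rise extended to the other 9. All 10 passed the filter on low values and were among the 22404 genes tested. The larvae were wild type, were held in water with 3, 30 or 100 nM TBT or with solvent alone from 2 to 5 days post fertilization, and were frozen at 5 days. Every group, the control included, had 0.2% (v/v) dimethyl sulfoxide, and each group held 3 libraries, each from a pool of 10 whole larvae. TBT is an organotin biocide known to activate retinoid X receptors and PPARγ. The labels do not state whether the 3 pools in a group had different parents or exposure vessels, so p-values here reflect only pool-to-pool scatter, possibly technical. In RNA from whole larvae, fewer cells of a type and less RNA per cell cannot be told apart.

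Lymphatic vessels of the zebrafish form by sprouting from veins. The ligand Vegfc acts on the receptor Flt4 (VEGFR3) to drive that sprouting, and the transcription factor Prox1 marks the cells that take the lymphatic fate. Kdrl, a zebrafish VEGF receptor, and Cdh5, the cadherin of endothelial junctions, are found in endothelium generally. Lyve1 proteins, the stabilins and the mannose receptor Mrc1a are uptake receptors of lymphatic and venous endothelium, and in zebrafish also of the endothelium-derived perivascular cells of the brain. Lyve1 and Stab2 are hyaluronan receptors, and the mammalian forms of LYVE1, STAB1 and MRC1 are also found on macrophages.

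The values are normalised counts as the authors deposited them, and their sum per library was between 26515823 and 35772586. The replicates kept a similar order for these genes in the control, 30 nM and 100 nM groups. Control replicate 2 was the highest of the 3 control libraries for all 10 members. Among all genes tested it was the highest for only 44.3%. Control replicate 1 was the lowest for 9 of the 10. At 30 nM, replicate 1 was the lowest for all 10, against 37.4% of all genes, and replicates 2 and 3 were each the highest for 5. At 100 nM, replicate 2 was the highest for 8 of the 10 and replicate 1 the lowest for 9. At 3 nM, replicate 2 was the highest for 6, and replicates 1 and 3 were each the lowest for 4. The tests of single genes below did not take the replicate number into account. A limma fit with that number as a block is an alternative, given further on and beside the genes whose call it changed. The scatter within the control group was wide for most members. Their differences at 100 nM are given below with the range on leaving out each of the 12 libraries in turn. Each such step also takes a replicate number out of a single group. At 100 nM, 17.5% of all genes tested differed from the control past the threshold used throughout (limma, adjusted p under 0.05), 9.63% upward and 7.9% downward.

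lyve1a (ENSDARG00000075833) encodes a hyaluronan receptor. It was listed at 47, 69 and 61 normalised counts in the control pools, at 84, 77 and 85 at 3 nM, at 77, 78 and 82 at 30 nM, and at 644, 637 and 640 at 100 nM. The 100 nM pools lay far above all others and almost on top of each other, while the 3 and 30 nM pools overlapped each other and lay slightly above the control range, as did 8.23% of all genes tested at 3 nM and 6.98% at 30 nM. The mean was 640 ± 3.51 at 100 nM and 59.0 ± 11.1 in the control (SD, n = 3 each), a 10.8-fold difference on the scale of log2(normalised count + 1). Between 100 and 30 nM the difference was 8.02-fold, so that most of the step fell between those concentrations. Against the control, the 3 and 30 nM pools differed 1.40-fold and 1.35-fold. The SD of 3.51 at 100 nM is smaller than 25.3, the square root of the mean and so the approximate counting error of a raw count of that size.

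lyve1b (ENSDARG00000062483), the paralog of lyve1a, did not share this step. Its values were 45, 55 and 52 normalised counts in the control, 66, 65 and 50 at 3 nM, 53, 69 and 68 at 30 nM, and 57, 92 and 77 at 100 nM. The 100 nM pools lay just above the control range and overlapped those at 3 and 30 nM. Among all genes tested, 14.5% lay wholly above the control range at 100 nM. At 100 nM lyve1b averaged 75.3 ± 17.6 against 50.7 ± 5.13 in the control (SD, n = 3 each), and the log2 difference of 0.54 ± 0.21 (SE) did not pass the test (limma adjusted p = 0.102, 95% interval 0.08 to 1.0). It passed only when 100 nM replicate 1 was left out among the 12 libraries taken in turn (log2 0.73, adjusted p = 0.0487), and the lowest difference was 0.39, without 100 nM replicate 2. lyve1b passed at 100 nM with the replicate block (limma adjusted p = 0.0405). Within each library, the ratio of lyve1a to lyve1b was 11.3, 6.92 and 8.31 at 100 nM against 1.04, 1.25 and 1.17 in the control. The ratio at 3 nM (1.27, 1.18 and 1.7) and at 30 nM (1.45, 1.13 and 1.21) overlapped the control. This ratio was chosen after the values had been seen.

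**Figure D1:**
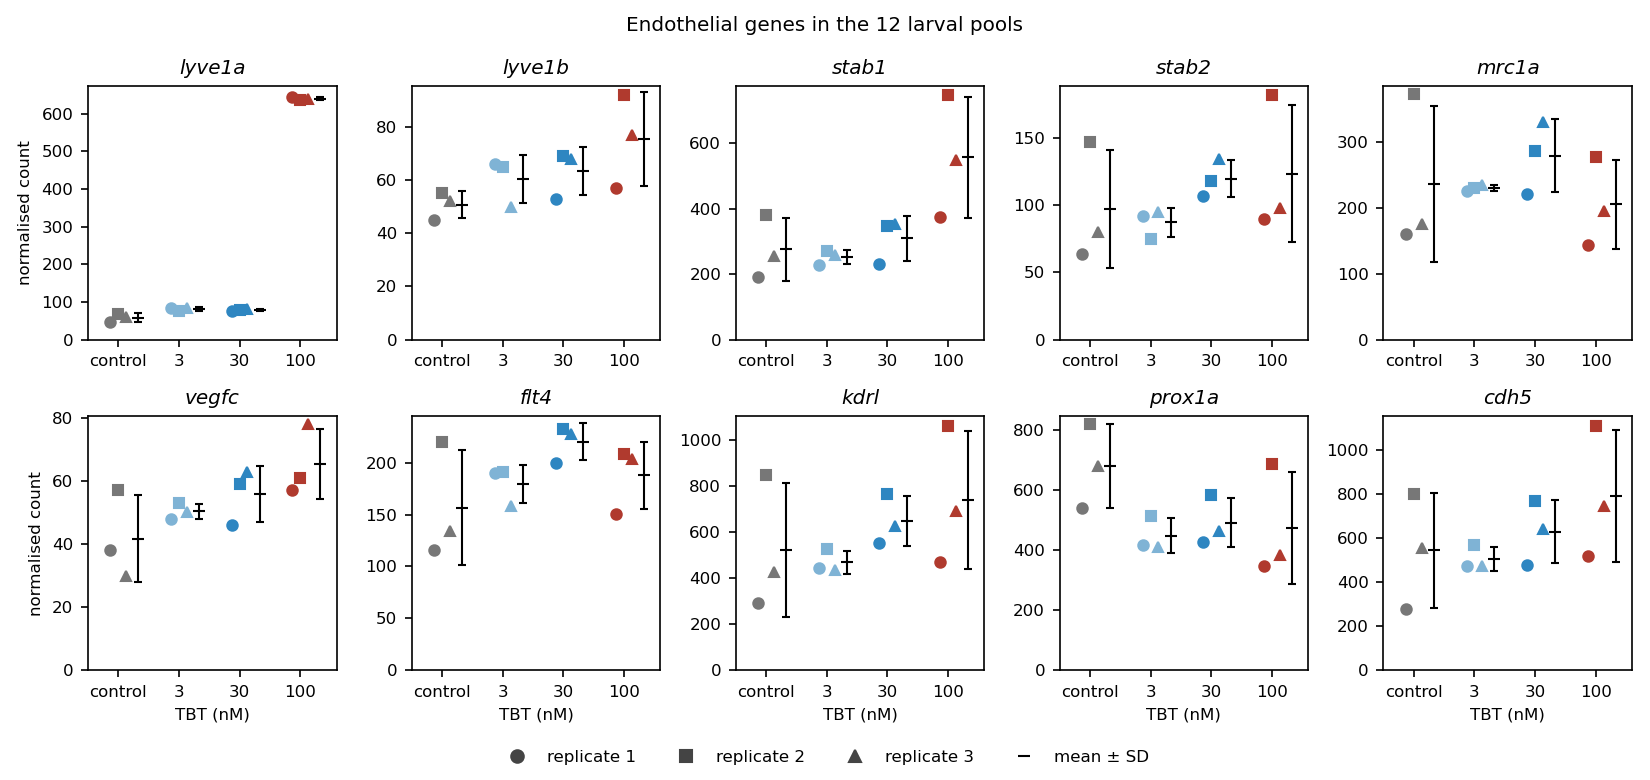
Normalised counts of the 10 endothelial genes in each of the 12 pools (y axis, from 0), by TBT concentration in nM (x axis). Symbols give the replicate number and bars the mean ± SD of 3 pools. The lyve1a pools at 100 nM sit at 637 to 644, while cdh5, kdrl, stab1, stab2 and mrc1a spread widely within the control, with replicate 2 highest.

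Among the uptake receptors other than the Lyve1 pair, stab1 (ENSDARG00000076484), a stabilin gene, was the 1 that rose. It was listed at 192, 380 and 256 normalised counts in the control, 228, 271 and 260 at 3 nM, 231, 346 and 352 at 30 nM, and 376, 746 and 547 at 100 nM. The lowest 100 nM pool lay just under the highest control pool, so the groups overlapped. stab1 averaged 556 ± 185 at 100 nM and 276 ± 95.6 in the control (SD, n = 3 each), 2.01-fold higher at 100 nM (log2 1.01 ± 0.28 SE, limma adjusted p = 0.0309). The call ended without control replicate 1 (adjusted p = 0.078), control replicate 3 (0.0955), 100 nM replicate 2 (0.0795) or 100 nM replicate 3 (0.0822), and held without control replicate 2 (0.0109), with log2 differences between 0.77 and 1.27. It also ended with all libraries scaled to the same total (log2 0.82, adjusted p = 0.124) and with only the 2 groups in the fit (0.13). The call held with libraries scaled to equal upper quartiles (log2 0.98, adjusted p = 0.0307). The difference between 100 and 30 nM was 0.81 ± 0.28 and did not pass (adjusted p = 0.105).

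stab2 (ENSDARG00000045748), which encodes the stabilin that takes up hyaluronan, showed no called difference. Its values were 64, 147 and 80 normalised counts in the control, 92, 75 and 95 at 3 nM, 107, 118 and 134 at 30 nM, and 90, 182 and 98 at 100 nM. All 4 groups overlapped, and the highest pool of the control and of 100 nM was replicate 2 in each. The log2 difference between 100 nM and the control was 0.36 ± 0.32 (SE, adjusted p = 0.475, 95% interval −0.33 to 1.06), so a 2-fold rise lies within the interval. It was 0.04 without 100 nM replicate 2, 0.11 without control replicate 1, 0.55 without 100 nM replicate 1 and 0.70 without control replicate 2, and none of these passed.

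mrc1a (ENSDARG00000102100) encodes a mannose receptor used as a marker of zebrafish lymphatic and venous vessels. It was listed at 161, 373 and 176 normalised counts in the control, 226, 230 and 235 at 3 nM, 222, 287 and 331 at 30 nM, and 144, 278 and 196 at 100 nM. The control range held every pool of the other groups except the lowest at 100 nM. Its log2 difference at 100 nM was −0.14 ± 0.31 (SE, adjusted p = 0.794), with a 95% interval of −0.83 to 0.54. Without control replicate 2 the sign turned (0.24), as it did without 100 nM replicate 1 (0.09), while the value was −0.38 without 100 nM replicate 2 and −0.37 without control replicate 1. None of these passed the test.

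Macrophages can carry the same uptake receptors, and their markers are given here for that reason. Of 22 macrophage markers, 3 rose and 2 fell at 100 nM, or 22.7% beside 17.5% of all genes (3 rose and 3 fell with libraries scaled to equal totals), with a median log2 difference of 0.27, and their summed normalised count was 8496 to 10372 at 100 nM and 8130 to 10130 in the control. The scavenger receptor gene marco (3.54-fold, adjusted p = 2.77e-04), the transcription factor gene irf8 (2.01-fold, adjusted p = 0.00303) and mfap4 (2.05-fold, adjusted p = 0.0054) rose. lgals3bpb was 4.91-fold lower (adjusted p = 5.34e-04), as was mpeg1.1, the gene of a perforin-like protein, by a smaller step (1.69-fold, adjusted p = 0.0202). The mpeg1.1 call was lost without control replicate 3 (0.0691) or 100 nM replicate 2 (0.0517). The part of macrophages in the stab1 and mrc1a values was not tested.

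The ligand gene vegfc (ENSDARG00000069640) was listed at 38, 57 and 30 normalised counts in the control, 48, 53 and 50 at 3 nM, 46, 59 and 63 at 30 nM, and 57, 61 and 78 at 100 nM. Its group means were 41.7, 50.3, 56.0 and 65.3 from the control to 100 nM, with overlap between all neighbouring groups. The log2 difference at 100 nM was 0.67 ± 0.24 (SE, adjusted p = 0.076) and passed only without control replicate 2 (0.92, adjusted p = 0.0169) among the 12 libraries taken in turn. The lowest difference was 0.47, without control replicate 3. vegfc passed at 100 nM with the replicate block (limma adjusted p = 0.0391).

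Its receptor gene flt4 (ENSDARG00000104453) was listed at 116, 220 and 134 normalised counts in the control, 190, 191 and 158 at 3 nM, 200, 233 and 228 at 30 nM, and 151, 209 and 204 at 100 nM. All groups overlapped the control, which spanned 116 to 220. The mean was highest at 30 nM, where the log2 difference from the control was 0.54 ± 0.22 (SE, adjusted p = 0.446, unadjusted p = 0.0316). At 100 nM it was 0.30 ± 0.22 (adjusted p = 0.384) and passed only without control replicate 2 (0.57, adjusted p = 0.0457), while the lowest value was 0.11, without control replicate 1.

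kdrl (ENSDARG00000105215), a VEGF receptor gene of blood vessels, was listed at 293, 848 and 424 normalised counts in the control, 443, 525 and 435 at 3 nM, 551, 767 and 628 at 30 nM, and 468, 1061 and 689 at 100 nM. The control range held every pool of the other groups except the highest at 100 nM. The log2 difference at 100 nM was 0.57 ± 0.36 (SE, adjusted p = 0.313), and 0.99 without control replicate 2 (adjusted p = 0.0437). It was 0.22 without control replicate 1, 0.27 without 100 nM replicate 2 and 0.85 without 100 nM replicate 1, none of which passed. kdrl passed at 100 nM with the replicate block (limma adjusted p = 0.0486).

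cdh5 (ENSDARG00000075549), the gene of VE-cadherin, had a control group as wide, with the same order of its pools. Its values were 278, 800 and 555 normalised counts in the control, 474, 570 and 475 at 3 nM, 479, 767 and 643 at 30 nM, and 518, 1112 and 745 at 100 nM. At 100 nM it averaged 792 ± 300 against 544 ± 261 in the control (SD, n = 3 each), and the log2 difference of 0.60 ± 0.36 (SE) did not pass (adjusted p = 0.289), nor without any of the 12 libraries taken in turn (lowest adjusted p 0.089). The difference was 0.94 without control replicate 2, 0.18 without control replicate 1 and 0.32 without 100 nM replicate 2. cdh5 passed at 100 nM with the replicate block (limma adjusted p = 0.031).

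prox1a (ENSDARG00000055158) was the member with lower means in all 3 exposed groups. It encodes a transcription factor of lymphatic fate that zebrafish larvae also express in liver, lens, muscle and neurons. Its values were 538, 818 and 678 normalised counts in the control, 417, 514 and 411 at 3 nM, 427, 582 and 462 at 30 nM, and 348, 686 and 382 at 100 nM. All 3 nM pools lay below the control range, as did 7.62% of all genes tested, while 1 pool at 30 nM and 1 at 100 nM lay within it. The log2 differences from the control were −0.59 at 3 nM (adjusted p = 0.448), −0.46 at 30 nM (0.594) and −0.57 at 100 nM (0.138), each ± 0.25 (SE), and none passed. Without 100 nM replicate 2, the highest pool of its group, the difference at 100 nM was −0.87 (adjusted p = 0.0112), and without 100 nM replicate 1 it was −0.38. In the fit with the replicate block, the limma adjusted p was 0.0349 at 3 nM, 0.0734 at 30 nM and 0.00607 at 100 nM.

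Liver cells express prox1a too. Of 19 hepatocyte markers, 4 rose and 2 fell at 100 nM, or 31.6% beside 17.5% of all genes (3 rose and 2 fell with equal totals), and their summed normalised count was 387852 to 521442 at 100 nM and 371176 to 389554 in the control. Most of each sum was apoa1b, apobb.1, apoa2 and rbp4 (control means 108300, 82760, 73360 and 59400). None of these passed at 100 nM, where apobb.1 was lower and the others higher. fabp10a, the gene of the liver fatty acid binding protein (log2 1.33, adjusted p = 0.00106), and the plasma protein genes ambp (0.96, adjusted p = 0.0012) and ttr (2.00-fold, adjusted p = 0.00886) rose, and ahsg2, of another plasma protein, fell (−3.83, adjusted p = 4.35e-04). At 30 nM 2 of the 19 rose and 1 fell, or 15.8% beside 0.531% of all genes (0 rose and 1 fell with equal totals), and at 3 nM 0 were called. The means of fabp10a (23465 against 21528) and ttr (1740 against 1498) were higher at 30 than at 100 nM. ahsg2 was at 4, 23 and 7 at 30 nM. The part of liver cells in the prox1a values was not tested.

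Across the other 9 members, 1 of 9 passed the threshold at 100 nM against the control (limma, adjusted p under 0.05), where 17.5% of all genes tested did, 9.63% upward and 7.9% downward. This count depends on the fit. With the replicate number as a block, 6 of the 9 passed, as did 7678 of all 22404 genes tested. The labels do not state what the replicate numbers mark, so that fit is given only as an alternative. The 9 log2 differences had a median of 0.54, 7 of them above 0, beside a median of −0.02 over all genes tested. With libraries scaled to equal totals the median of all genes was −0.20, that of the 9 was 0.36 (lyve1b), and 0 of the 9 were called. At 30 nM against the control 0 of 9 passed (1 at an unadjusted p under 0.05, flt4), beside 0.531% of all genes (0.379% upward, 0.152% downward), with a median of 0.33. At 3 nM 0 of 9 passed (1 unadjusted, prox1a), beside 0.0402% of all genes (0.00446% upward, 0.0357% downward), with a median of 0.02. Between 100 and 30 nM 0 of 9 passed (1 unadjusted, stab1), beside 9.23% of all genes (5.29% upward, 3.95% downward). All 3 stab1 pools at 100 nM lay above those at 30 nM, as did 14.0% of all genes. The comparisons with the control share the same 3 control pools. The 95% intervals of all 9 at 100 nM ended below the 10.8-fold difference of lyve1a, the highest upper bound being 3.10-fold for stab1. Since lyve1a was chosen for its rise, this sets them beside a selected value and is no test.

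**Figure D2:**
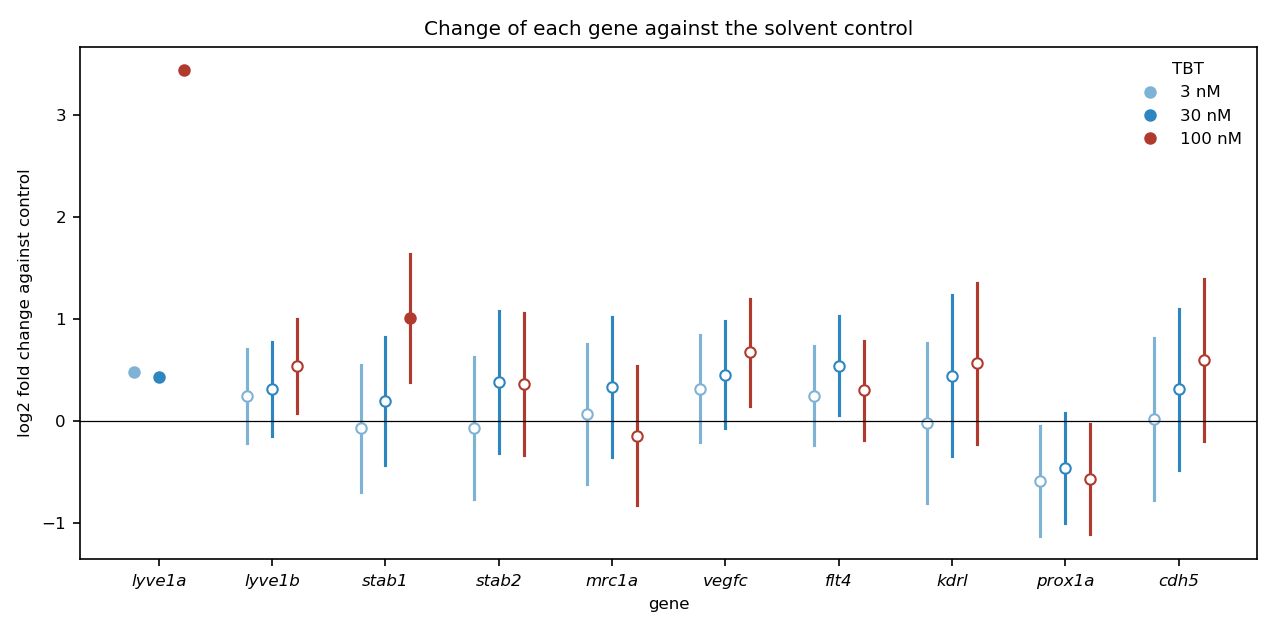
Log2 fold change of each gene against the control (y axis) at 3, 30 and 100 nM TBT, with 95% intervals from limma for the 9 genes other than lyve1a, which is shown with no interval. Among those 9, the filled point is stab1 at 100 nM, the value past the threshold, and open points did not pass. All intervals at 100 nM end below the point of lyve1a, which was chosen for its rise.

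Since cdh5 and kdrl mark endothelium at large and ordered the control and 100 nM pools alike, the other members were also set against them in the same library, a scale chosen after the data had been seen. On this scale each value is log2(normalised count + 1) minus the mean of that of cdh5 and kdrl, and differences between groups are described with no test. stab1 was 0.43 higher at 100 nM than in the control, with all 3 pools above the control range, where 0.83% of all genes lay above it. On the normalised counts themselves stab1 overlapped the control, while 14.5% of all genes lay above the control range. mrc1a differed by −0.72 at 100 nM, with all 3 pools below the control range, where 17.9% of all genes lay below it. prox1a differed from the control by −0.59 at 3 nM, −0.84 at 30 nM and −1.15 at 100 nM, and lay below the control range in each, as did 5.43%, 11.5% and 17.9% of all genes at those concentrations. No member lay above the control range at 3 or 30 nM on this scale, beside 0.924% and 0.687% of all genes. All genes measured against cdh5 and kdrl carry the differences of those 2 genes at 100 nM (0.60 and 0.57), which themselves did not pass the test without a replicate block. They also carry the wide control spread of cdh5 (278 to 800) and kdrl (293 to 848), which bears on the shares given on this scale. lyve1b (−0.04), stab2 (−0.22), flt4 (−0.28) and vegfc (0.09) overlapped the control at 100 nM on this scale.

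**Figure D3:**
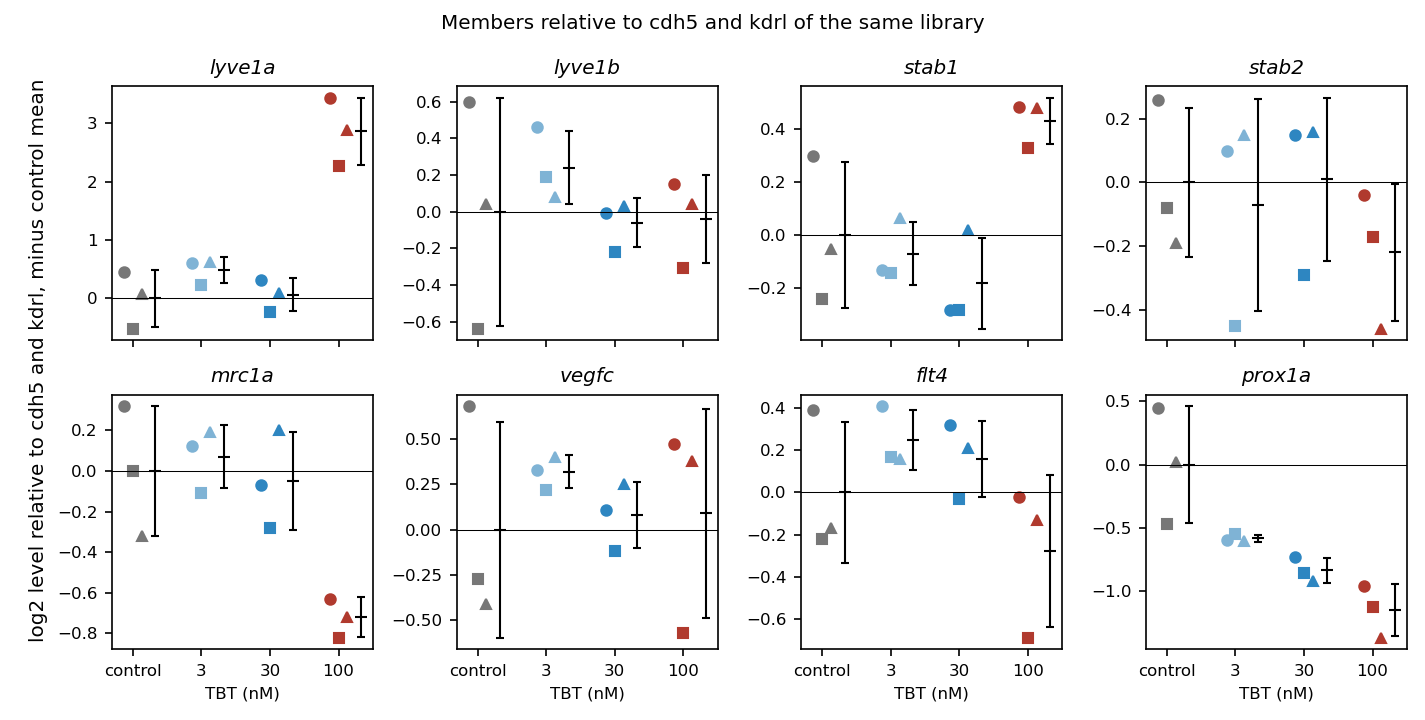
Level of 8 members relative to cdh5 and kdrl of the same library (y axis, log2, minus the mean of the control) by TBT concentration in nM (x axis). Symbols give the replicate number and bars the mean ± SD of 3 pools. At 100 nM lyve1a and stab1 lie above all control pools, prox1a and mrc1a below them, and the other 4 overlap them.

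Beyond the 10 members, 108 tested genes in 6 lists covered lymphatic development, endothelial identity, arteries and Notch, veins and fenestrated vessels, VEGF and angiopoietin signalling, and flow response and vessel tone. At 100 nM 15 rose and 8 fell, or 21.3% beside 17.5% of all genes, and with equal totals 8 rose and 12 fell. Over all genes, equal totals gave 1127 upward and 2865 downward calls, or 28.2% upward, against 54.9% in the fit reported. Of the 23 vascular calls in the fit reported, 16 held without each of the 12 libraries in turn and 16 held with equal totals. Many of these genes are also expressed outside vessels. At 30 and 3 nM 0 of the 108 passed, beside 0.531% and 0.0402% of all genes (limma, 22 and 10 at an unadjusted p under 0.05). The share of all genes at that unadjusted level was not computed, so the 22 and 10 have no reference. The median log2 difference at 100 nM was 0.12, and −0.06 with equal totals. Over all genes it was −0.02, and −0.205 with equal totals, a shift that the list medians below share.

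Of 17 genes of VEGF and angiopoietin signalling, some of which also stand in the lymphatic list, 4 rose and 0 fell, or 23.5% beside 17.5% of all genes, with a median of 0.19, or 0.01 with equal totals. angpt2a, which encodes an angiopoietin made by endothelium that is being remodelled, was listed at 98, 122 and 113 normalised counts at 100 nM and at 14, 14 and 15 in the control. The 30 nM pools (27, 25 and 27) lay between these groups without overlap, though their difference from the control did not pass (adjusted p = 0.476). angpt2a was 7.28-fold higher at 100 nM than in the control (log2 2.86 ± 0.36 SE, adjusted p = 3.74e-04), and 2.03 higher on the log2 scale at 100 than at 30 nM (adjusted p = 0.00512). The paralog angpt2b differed by −0.23 at 100 nM and did not pass (limma adjusted p = 0.549). vegfaa, a VEGF-A gene, had 602, 448 and 536 normalised counts at 100 nM and 240, 259 and 234 in the control, 2.15-fold higher at 100 nM (SE 0.14 on the log2 scale, adjusted p = 3.66e-04). Its paralog vegfab had 346, 577 and 506 at 100 nM and 175, 235 and 217 in the control (log2 1.16 ± 0.18 SE, adjusted p = 0.00127). vegfab was also above the control range at 30 nM, with 337, 378 and 369 (adjusted p = 0.0904). ccbe1, whose product aids the processing of Vegfc, averaged 76.0 ± 6.24 at 100 nM and 41.0 ± 3.46 in the control (SD, n = 3 each, adjusted p = 0.00614). The 30 nM pools of vegfaa (305, 281 and 329) and ccbe1 (68, 58 and 54) lay above the control range too. Of all genes tested, 6.98% lay above the control range at 30 nM, as these 4 did, and 0 of the 17 passed the test there. Since these 4 were named for their 100 nM difference from the same control pools, that share is no matched reference for them. The same holds for such shares at 3 and 30 nM in the lists below. These 4 kept their calls without each library and with equal totals.

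Of 36 genes of general endothelial identity, 5 rose and 0 fell, or 13.9% beside 17.5% of all genes. Of these genes 29 of 36 had a difference above 0, and the median was 0.32, or 0.13 with equal totals, where 2 rose. cldn5b, a tight junction gene of endothelium, had 350, 338 and 318 normalised counts at 100 nM and 142, 191 and 191 in the control (log2 0.95 ± 0.13 SE, adjusted p = 7.58e-04). etv2, a transcription factor gene of early endothelium and blood, rose 1.79-fold (adjusted p = 0.00419). PLXND1, the gene of a semaphorin receptor of vessels, rose 1.80-fold (adjusted p = 0.00482), but not with equal totals (0.0509). lmo2, a transcription cofactor gene of endothelium and blood, rose 1.42-fold (adjusted p = 0.0331), but not without control replicate 1 (0.0758), control replicate 3 (0.0796), 100 nM replicate 1 (0.0838) or 100 nM replicate 3 (0.0939), nor with equal totals (0.243). On leaving out 1 library, egfl7, the fifth, kept its call only without replicate 1 of 3 or 30 nM, control replicate 3 or 100 nM replicate 2, and leaving out each of the other libraries gave log2 differences of 0.40 to 0.53 that did not pass. At 3 nM cldn5b, lmo2 and egfl7 already lay above the control range, as did 8.23% of all genes, while etv2 and PLXND1 did not. At 30 nM cldn5b, etv2 and lmo2 lay above it, as did 6.98% of all genes, while PLXND1 and egfl7 did not. The mean of lmo2 was 164 at 3 nM, 175 at 30 nM and 175 at 100 nM, against 124 in the control. At 3 and 30 nM 0 of the 36 passed.

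Of 8 venous and fenestrated vessel genes, 1 rose, or 12.5% beside 17.5% of all genes. It was vsg1 (plvapb in the gene name table), which encodes a protein of the diaphragms of fenestrated endothelium. It had 1569, 2241 and 1807 normalised counts at 100 nM, 824, 1124 and 923 at 30 nM, and 297, 919 and 452 in the control, so that the 100 nM pools lay above all others. The log2 difference at 100 nM was 1.89 ± 0.32 (SE, adjusted p = 0.00235). Its paralog plvapa was 1.03 ± 0.40 higher without passing (adjusted p = 0.105).

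Of 21 genes of lymphatic development other than the members, 3 rose and 2 fell, or 23.8% beside 17.5% of all genes, with a median of 0.06. With equal totals the median was −0.13, beside −0.205 over all genes. The rises were angpt2a and ccbe1, described above, and mafbb, which kept its call only without control replicate 1 or 100 nM replicate 2 and was at 0.38 (adjusted p = 0.128) without control replicate 2. gata2b averaged 19.3 ± 9.07 at 100 nM and 46.0 ± 9.64 in the control (SD, n = 3 each, adjusted p = 0.0152). It is a zebrafish form of GATA2, a gene known for lymphatic valves in mammals. The paralog gata2a overlapped the control at 100 nM and did not pass (log2 −0.22, limma adjusted p = 0.635). foxc1b, a forkhead gene of vessels and mesenchyme, differed by −0.46 (adjusted p = 0.0196), a call that ended without control replicate 3 (0.0703) or 100 nM replicate 1 (0.0663). The paralogs foxc1a (log2 0.25, limma adjusted p = 0.564) and mafba (0.06, limma adjusted p = 0.671) did not pass at 100 nM.

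Of 22 arterial and Notch genes, 3 rose and 2 fell, or 22.7% beside 17.5% of all genes, with a median of −0.12. With equal totals 1 rose and 5 fell, where 28.2% of the calls over all genes were upward. acvrl1, the gene of an arterial BMP receptor, had 795, 800 and 875 normalised counts at 100 nM and 563, 516 and 506 in the control (log2 0.64 ± 0.08 SE, adjusted p = 4.93e-04). The Notch ligand gene dlc rose by 0.41 (adjusted p = 0.00593, 0.145 with equal totals). The Notch target gene her6 differed by −0.57 (adjusted p = 0.00415). jag1a, a Notch ligand gene, differed by 0.42 (adjusted p = 0.0373) and kept its call only without 100 nM replicate 1. efnb2a, an ephrin gene of arteries, differed by −0.32 and lost its call without 8 of the 12 libraries, among them control replicate 2 (0.111), control replicate 3 (0.0944), 100 nM replicate 1 (0.123) and 100 nM replicate 3 (0.0901), the other 4 being from 3 and 30 nM. At 3 nM her6 and efnb2a lay below the control range, as did 7.62% of all genes, and acvrl1, dlc and jag1a overlapped it. At 30 nM acvrl1 and dlc lay above the control range and efnb2a below it, as did 6.98% and 7.28% of all genes. her6 and jag1a overlapped the control there, and 0 of the 22 passed.

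Of 18 genes of flow response and vessel tone, 4 fell and 1 rose, or 27.8% beside 17.5% of all genes, with a median of 0.05. With equal totals the median was −0.14, beside −0.205 over all genes. There 5 fell and 0 rose, while 28.2% of the calls over all genes were upward. klf2b, a paralog of a flow-induced transcription factor gene that is also expressed in zebrafish skin, had 777, 652 and 729 normalised counts at 100 nM and 3072, 1529 and 2330 in the control. Its exposed groups lay below the control range at 3, 30 and 100 nM, as did 7.62%, 7.28% and 12.9% of all genes. At 100 nM it was 3.09-fold lower (log2 −1.63 ± 0.21 SE, adjusted p = 4.34e-04). Its paralog klf2a overlapped the control at 100 nM and did not pass (log2 −0.89, adjusted p = 0.1, or 0.0403 with equal totals). klf4, a related gene, was 2.44-fold lower (adjusted p = 0.00534). nos1, the gene of the neuronal nitric oxide synthase, was 3.78-fold lower (adjusted p = 0.00225), and gch2, of a pteridine synthesis enzyme, 1.74-fold lower (adjusted p = 0.00788). At 3 nM gch2 lay above the control range, with 1361, 1538 and 1448 against 1191, 1083 and 1213, as did 8.23% of all genes.

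**Figure D4:**
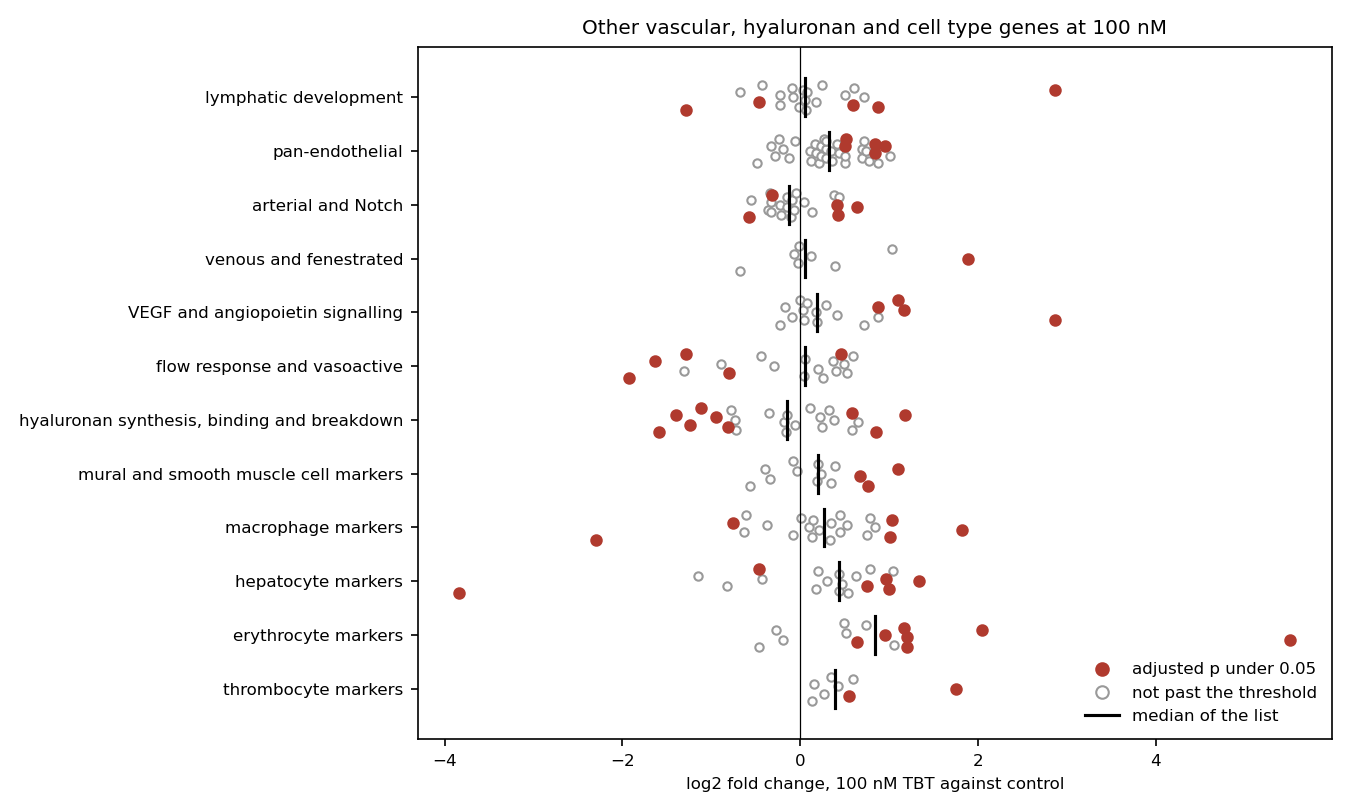
Log2 fold change at 100 nM TBT against control (x axis) for the genes of each list (y axis), with filled points past an adjusted p of 0.05, open points not past it, and a black line at each median. The rightmost vascular points are angpt2a at 2.86, which stands in 2 lists, and vsg1 at 1.89, and 6 filled hyaluronan points lie left of 0.

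Genes that make, bind or break down hyaluronan, the ligand of Lyve1 receptors, moved in both directions at 100 nM. Of 24 tested, 6 fell and 3 rose, or 37.5% beside 17.5% of all genes, with a median of −0.15. With equal totals 9 fell and 1 rose, where 28.2% of the calls over all genes were upward. hmmr, the gene of a hyaluronan-binding protein of the mitotic spindle, averaged 112 ± 11.8 normalised counts at 100 nM and 296 ± 37.3 in the control (SD, n = 3 each, adjusted p = 1.23e-04). The matrix genes vcanb (log2 −1.59, adjusted p = 0.00618) and hapln1b (−0.95, adjusted p = 8.05e-04), whose products bind hyaluronan in the matrix, fell as well. hyal2b, the gene of a hyaluronidase, averaged 324 ± 21.8 at 100 nM and 180 ± 22.9 in the control (adjusted p = 0.00163). The hyaluronan synthase gene has2, chosen after its value was seen, had 18, 32 and 24 normalised counts at 100 nM and 44, 86 and 52 in the control (adjusted p = 0.0238). The has2 call was lost on leaving out control replicate 2 (0.0736) or 3 (0.0566), or 100 nM replicate 1 (0.0888) or 3 (0.0622). At 30 nM and 3 nM 0 of 24 passed, beside 0.531% and 0.0402% of all genes (limma, 1 and 0 at an unadjusted p under 0.05).

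The pattern of lyve1a over the 12 libraries was compared with that of every other tested gene by the root mean square difference of log2(normalised count + 1), each gene taken relative to its control mean. The most similar genes were BX005395.1 (0.40), esm1 (0.42), si:ch211-81a5.8 (0.45), guca1a (0.49) and si:dkey-83k24.5 (0.50). They were chosen for this likeness, so their values are a description. esm1, which encodes endocan, a proteoglycan secreted by sprouting endothelium, had 221, 345 and 199 normalised counts at 100 nM, against 31, 47 and 32 in the control. It had 50, 40 and 45 at 3 nM and 51, 60 and 44 at 30 nM, so that it also stepped up between 30 and 100 nM. guca1a encodes an activator of guanylate cyclase in photoreceptors, and its mean was 140 ± 30.9 at 100 nM and 19.7 ± 6.51 in the control (SD, n = 3 each). Among the genes of the 6 vascular lists, angpt2a (0.66, position 21 of 22403), vsg1 (0.86, position 77) and vegfab (1.17, position 382) were the most similar. Among the members, stab1 came nearest at position 642, and mrc1a and prox1a were at 12713 and 19946.

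**Figure D5:**
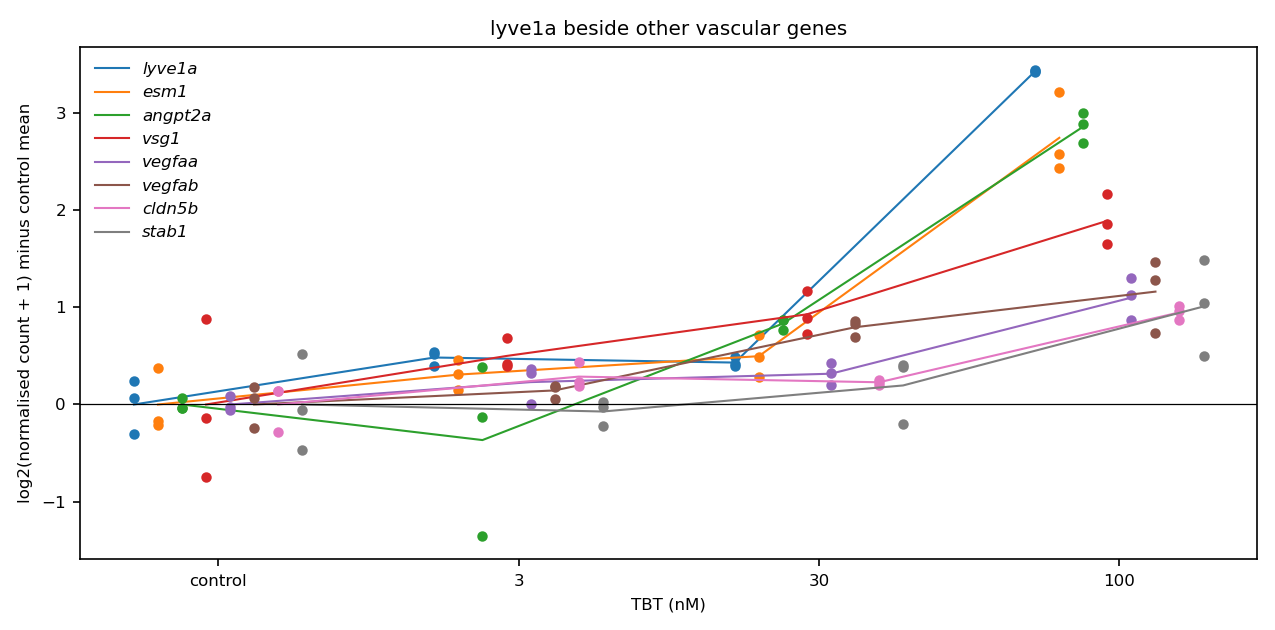
Log2(normalised count + 1) minus the control mean (y axis) by TBT concentration in nM (x axis) for lyve1a, esm1, angpt2a, vsg1, vegfaa, vegfab, cldn5b and stab1. All genes shown were higher at 100 nM than in the control, and esm1 was named for its likeness to lyve1a. Of the 108 vascular genes, 15 rose, 8 fell and 85 were not called at 100 nM. Points are single pools and lines join group means. lyve1a is nearly flat up to 30 nM and has its 3 pools at 100 nM within 637 to 644 normalised counts, while vegfab has part of its rise at 30 nM.

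Markers of blood cells and of the cells around vessels are given last, and the part of those cells in the values above was not tested. Of 14 erythrocyte markers, 7 rose and 0 fell, or 50.0% beside 17.5% of all genes (5 rose with equal totals), with sums of 28944 to 49843 at 100 nM and 16132 to 25907 in the control. The globin genes hbz (hbae5 in the gene name table, log2 5.52, adjusted p = 2.57e-04) and hbbe2 (2.05, adjusted p = 8.72e-04), the erythroid transcription factor gene gata1a (1.17, adjusted p = 0.00331) and the haem synthesis gene alas2 (2.30-fold, adjusted p = 0.00922) were among them. Of 8 thrombocyte markers, 2 rose, or 25.0% beside 17.5% of all genes (1 rose with equal totals), with sums of 8587 to 9821 at 100 nM and 5658 to 7713 in the control. They were the platelet glycoprotein gene gp9 (log2 1.76, adjusted p = 0.00759) and the thrombospondin gene thbs1b (0.55, adjusted p = 0.0199), whose call was lost without control replicate 2 (0.0558), control replicate 3 (0.0854), 100 nM replicate 1 (0.0545) or 100 nM replicate 3 (0.0526). Most of each sum was thbs1b, with 7950, 7966 and 7846 normalised counts at 100 nM and 7045, 4566 and 4947 in the control. The other 6 thrombocyte markers did not pass, among them itga2b (adjusted p = 0.78) and mpl (0.772). Of 13 mural and smooth muscle markers, 3 rose, or 23.1% beside 17.5% of all genes (1 rose with equal totals), with overlapping sums of 8468 to 13324 at 100 nM and 7088 to 12887 in the control. The channel subunit gene kcne4 (2.15-fold, adjusted p = 0.00463) kept its call without each library, whereas the myosin kinase gene mylka (1.70-fold, adjusted p = 0.0235) and ndufa4l2a (1.59-fold, adjusted p = 0.0245) lost theirs without 4 libraries each. For both these included control replicates 1 and 3 and 100 nM replicate 2, with 100 nM replicate 3 for mylka and 100 nM replicate 1 for ndufa4l2a, at adjusted p up to 0.0723. This mylka is ENSDARG00000034801. Another gene of that name among the 13, ENSDARG00000090738, did not pass (log2 0.39, adjusted p = 0.574). None of the markers matched for macrophages, hepatocytes, erythrocytes, thrombocytes and mural cells, those below the filter on low values included, was at 0 in all 12 libraries.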

How the data were processed

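RNA was extracted from pools of 10 whole larvae and sequenced as stranded poly(A) libraries in paired-end mode, per the labels' protocols. The deposited values are a score: normalised counts per gene as deposited by the authors, per the file headers, and all are whole numbers. Tools listed in the submitters' processing notes, without their order or purpose, are STAR (2.5.1b), CASAVA, DESeq2 (1.10.1) and RSEM (1.2.28), and the listed build is GRCz10, with no annotation release. The values hold no raw depth, so no count model was used, and folds on the scale below understate the change of low genes. Levels are not compared between genes, since no lengths were used, and genes with near-identical copies, such as the globins, may share reads.

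Here log2(normalised count + 1) was fitted for all 12 libraries with limma 3.58.1 in R 4.3.3 (group means, eBayes with a variance trend) for genes with at least 10 in at least 3 libraries. Benjamini-Hochberg adjustment covered all genes tested, the threshold was 0.05, and no replicate block was used. The script was tested on simulated data. The members and lists were chosen with earlier results of these data known. Of 224 listed symbols, 200 matched by name and 10 through gene IDs. Named from each list were the 4 genes of lowest p among those past the threshold at 100 nM, or the 2 of lowest p where fewer than 2 passed. The 5 genes most like lyve1a were named too, leaving out members and genes named only by an Ensembl ID. egfl7, mafbb, efnb2a, has2 and mpeg1.1 were named after their values were seen. Alternatives were other pseudocounts, filters and scalings, a replicate block, 2-group fits, no variance trend and leaving out each library.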

Additional observations from a re-analysis of the deposited data

How the results depend on the processing

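Of the other 9 members, 1 passed at 100 nM against the control in the fit reported. The count was 0 with equal totals, 0 with only 2 groups in the fit, and 0 to 4 when each library was left out in turn (0 on leaving out replicate 1 or 3 of the control or replicate 3 of 100 nM, 2 without 100 nM replicate 1, 4 without control replicate 2). For the 108 vascular genes the count was 23, against 9 with only 2 groups and 17 to 32 without 1 library. In a narrower set without the arterial and flow lists, added after the data had been seen, it was 13 of 68. Over all genes it was 3926, against 1153 with only 2 groups and 2287 (without control replicate 3) to 4634 (without 100 nM replicate 2) without 1 library. Equal totals moved the share of upward calls to 28.2% from 54.9%. With equal upper quartiles 49.8% of 3975 calls were upward, and 1 of the 9 members and 22 of the 108 vascular genes were called.

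The replicate numbers are shared across groups, but they are not stated to mark a clutch or day. Deviations from the group means of same-number pairs correlated between −0.02 and 0.58 (18 pairs, median 0.37). Pairs of different number correlated between −0.60 and 0.21 (36 pairs, median −0.09). Of 12 libraries, 11 correlated best on average with their own number, a hint from the data and not from the design. With the replicate block, 6 of the 9 members passed at 100 nM. They were lyve1b (limma adjusted p = 0.0405), stab1 (5.2e-04), prox1a (0.00607), kdrl (0.0486), cdh5 (0.031) and vegfc (0.0391). In that fit 1 passed at 3 nM (prox1a, adjusted p = 0.0349) and 1 between 100 and 30 nM (stab1, adjusted p = 0.00331). For these comparisons the share of all genes passing in that fit is not given, so the counts have no reference. At 100 nM 46 of the 108 vascular genes and 7678 of all genes passed in that fit.

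The sign of some log2 differences turned, none of them past the threshold. With equal totals at 3 nM, mrc1a was at −0.0242 and cdh5 at −0.0748, and kdrl was at 0.0167 with equal upper quartiles. Without 1 library, the ranges against the control were −0.30 to 0.19 for stab1, −0.32 to 0.28 for stab2, −0.15 to 0.45 for mrc1a, −0.36 to 0.40 for kdrl and −0.40 to 0.36 for cdh5 at 3 nM. They were −0.0362 to 0.45 for stab1 and −0.11 to 0.65 for cdh5 at 30 nM, and −0.38 to 0.24 for mrc1a at 100 nM. Between 100 and 30 nM they were −0.34 to 0.16 for stab2, −0.41 to 0.0748 for prox1a and −0.18 to 0.41 for kdrl. The cause was not tested. The labels give raw depth only as an average, so no counting interval is given.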
